A study of Mus musculus with 12 samples.

Results

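The blood of 6 mice was compared between the 3 animals with high and the 3 with low S100a8 RNA in the colon. The series holds 12 libraries of total RNA without small RNA, from the colon and the whole blood of 6 male C57BL/6 mice of 8 weeks. Per the labels, mice 1, 2 and 4 had ulcerative colitis (UC), and mice 7, 8 and 9 were controls. By the paper, UC was induced with 1.5% dextran sulfate sodium (DSS), a polymer that injures the colon lining, in the drinking water for 7 days. Controls drank the same water without DSS. The paper does not name the mice by number. All animals were killed on day 8, and each library comes from a single mouse. DSS gives an acute injury in a wild-type animal and is a model of UC only in part.

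The 2 sides were chosen by the S100a8 value of each mouse in the authors' normalized colon table, at 1000 or more against under 100. Colon S100a8 was 5370.4 normalized counts in mouse 1, 1888.0 in mouse 7 and 13337 in mouse 9, which form the high side. It was 33.1 in mouse 2, 22.3 in mouse 4 and 75.6 in mouse 8, which form the low side. The mice nearest to the thresholds were mouse 7 from above and mouse 8 from below. The sides cut across the deposited disease labels: the high side holds 1 mouse labelled UC and 2 labelled control, and the low side 2 labelled UC and 1 labelled control. What each mouse received cannot be read from the split, so the sides are named here by colon S100a8 alone. The colon values set the sides and are given as a description. The blood libraries were not used by the rule and are tested, but the split was proposed with blood results of these data known. The p-values therefore describe how the blood of these 6 mice goes with the split. They set each difference against the spread between 3 animals a side, which is estimated with information shared across genes.

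S100a8 and S100a9 encode the subunits of calprotectin, an abundant protein of the neutrophil cytosol that is released in inflammation and is measured in stool to follow bowel disease. Neutrophils are made in the bone marrow under granulocyte colony-stimulating factor, carry granules loaded in order of maturation, and leave the blood for inflamed tissue along chemokines and formyl peptides, which Fpr1 and Fpr2 sense. Mcemp1 encodes a transmembrane protein of mast cells and myeloid cells. RNA of whole blood is a mixture of red cell, platelet and leukocyte RNA. Fewer cells of a type and less RNA per cell cannot be told apart in it.

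The blood libraries held 80867247 to 142536804 counts. Between 35.9% and 65.4% of them fell in Rn7s1 and Rn7s2, which encode 7SL RNA, and counts outside these genes ran from 57472669 to 63594520 on the high side and from 36485533 to 50811658 on the low side, without overlap. After the 7SL genes were left out and every library was thinned to 36485533 counts, a check added after seeing the data, 153 genes were called higher and 0 lower. All 64 genes called in the full libraries were among them. The labels name the tissue in 2 fields that contradict each other, and the libraries were taken as blood by the tissue characteristic. The red cell gene Alas2 lay between 34000 and 77000 CPM (here the count scaled to the raw total of its library) in blood against 5.75 to 44.3 in colon, and the platelet gene Ppbp between 447 and 1230 CPM against 0.492 to 1.57. Among gut epithelium markers, Krt8 reached at most 0.953 CPM in blood, where it was at 0 in 2 libraries, and at least 3550 CPM in colon.

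In blood, 64 of 16759 tested genes (0.382%) were called higher on the high side and 0 (0%) were called lower, at an adjusted p of at most 0.05 and an absolute log2 fold change (log2FC) over 1. With no adjustment, 1874 genes had a p under 0.05, of which 1469 (8.77%) had a positive and 405 (2.42%) a negative log2FC. DESeq2, an alternative test on the same counts, called 588 of 19108 genes higher (3.08%) and 24 lower (0.126%), and all 64 genes were among the 588. By the deposited disease labels, the same edgeR test called 0 of 16759 genes (0%), with 241 at an unadjusted p under 0.05, and DESeq2 called 6. None of the 64 genes separated the labelled groups without overlap. That was fixed in advance, since each separated the sides and the sides cut across the labels. The labelled log2FC of the 64 lay between -0.64 and 0.88. For UC against control in blood, the paper lists a log2FC of 4.5 for Steap4, 4.6 for Wfdc17 and 5.2 for Upp1. By the split they were 4.47, 4.62 and 5.17. The paper's values come from DESeq2 and those of the split from edgeR. These 3 were among the closest of the blood genes the paper lists. Lipg, Prok2, Saa3 and Nos2, with no count on the low side, lay further from the paper's values. Which mice the paper set against which was not tested. Of the 64, 56 are protein-coding genes, and the rest are 5 entries of the annotation type TEC, a lincRNA, an antisense RNA and a transcribed pseudogene. Their log2FC ran from 1.38 to 11.5 with a median of 2.47, against a median of -0.03 over all genes tested. In each of the 64 all 3 mice of the high side lay above all 3 of the low side, which a call on these same values favours. Among all genes tested, 11.2% lay above without overlap and 7.85% lay the other way round.

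**Figure D1:**
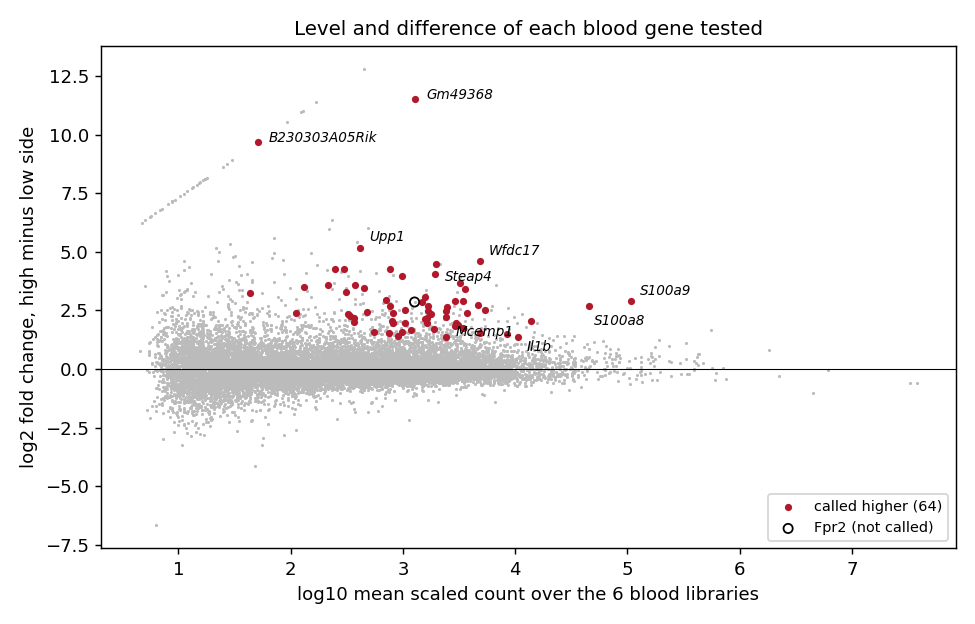
Mean scaled count over the 6 blood libraries (x axis, log10) against log2FC of the high minus the low side (y axis) for each gene tested in blood. Red points are the 64 called genes, all above 0, and the open circle is Fpr2; the line of points rising at the upper left holds genes with no count on the low side, whose fitted log2FC depends on the prior count.

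The number called rested on single libraries. Without mouse 1 it was 105 and without mouse 7 it was 257, but without mouse 2 it was 5, without mouse 4 it was 0, without mouse 8 it was 2 and without mouse 9 it was 4. The size of the differences moved less. Each of the 64 genes kept a log2FC over 1 in each of these 6 fits, and the median over the 64 stayed between 2.09 and 2.73. Steap4 was called in 5 of the 6 fits, Gm49368 in 4, and Wfdc17 and Ifitm1 in 3. These 4 were also the genes with an adjusted p of at most 0.01 when all 6 libraries were used.

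S100a8 itself rose in blood (chromosome 3, 90668978 to 90670035, plus strand, GRCm38). Its scaled count, the count divided by the normalized library size and brought to the mean library, was 91079, 38715 and 104402 in mice 1, 7 and 9, and 14879, 11926 and 9073 in mice 2, 4 and 8. The lowest high mouse lay above the highest low mouse, and the order of the high side (9, 1, 7) was the same as in the colon values that set the split. The order of the low side was not the same, with mice 2, 4, 8 from the top in blood and 8, 2, 4 in colon. The log2FC was 2.71 (SE 0.418, adjusted p = 0.046), or 6.53-fold. In fits without mouse 1, 2, 4, 8 or 9 its adjusted p was over the threshold, with 0.262 as the highest. S100a9, the gene of the partner subunit on the opposite strand nearby (chromosome 3, 90692632 to 90695721), had 265259, 96323 and 206431 scaled counts on the high side and 25386, 27074 and 22613 on the low side. It rose by a log2FC of 2.92 (SE 0.424, adjusted p = 0.0361), and here mouse 1 was above mouse 9. In CPM on the TMM-normalized library size, the scale of every CPM value from here on, and per kilobase of exon, S100a9 stood at 3010 CPM on the high and 397 CPM on the low side, and S100a8 at 932 and 143.

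Mcemp1 (chromosome 8, 3665754 to 3669259) had 5704, 2421 and 3850 scaled counts on the high side and 833, 1046 and 731 on the low side. It rose 4.58-fold, a log2FC of 2.20 (SE 0.321, adjusted p = 0.0361). It was called in the fits without mouse 1 and without mouse 7, and not without mouse 2, 4, 8 or 9, where its adjusted p reached 0.232. Fpr2 (chromosome 17, 17887824 to 17893952), a formyl peptide receptor, had 3777, 871 and 2044 scaled counts on the high side and 500, 275 and 151 on the low side. The sides did not overlap and the log2FC was 2.86, but the spread on both sides was wide (SE 0.577) and the adjusted p of 0.074 missed the threshold. DESeq2 called it, as did the edgeR fits without mouse 7 and with the disease label as a term.

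**Figure D2:**
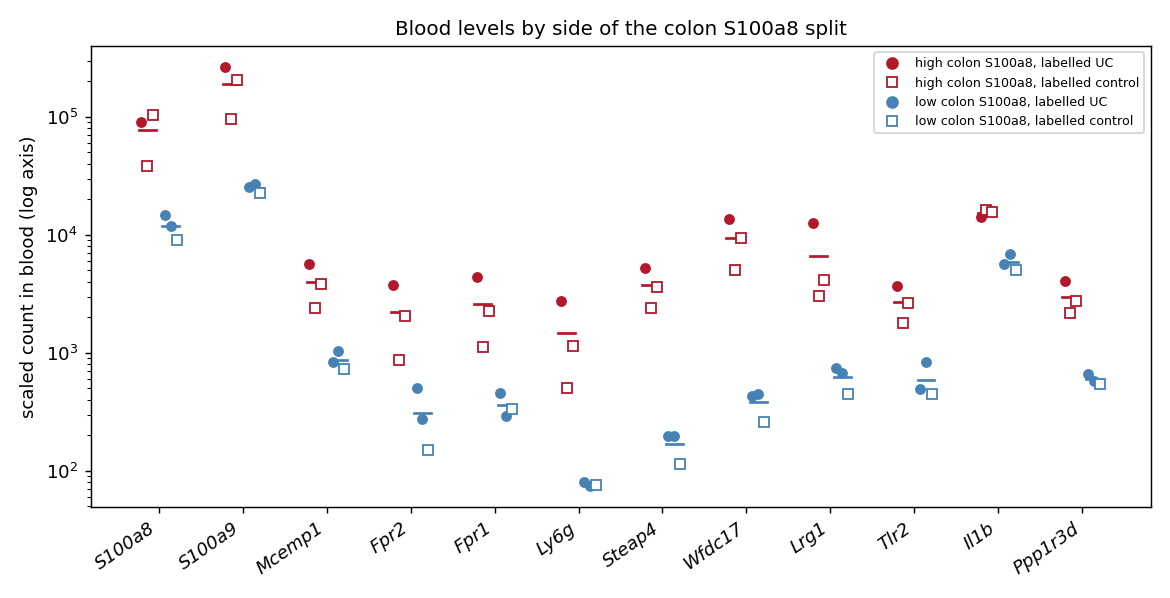
Scaled count in blood (log axis) of 12 genes in each mouse. Red marks mice with high and blue mice with low colon S100a8, filled circles are mice labelled UC, open squares mice labelled control, and bars are means of 3 mice; in each of these genes the red and the blue marks do not overlap.

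The sequence before the transcription start is shown for the 3 marker genes, for S100a9, the partner of S100a8, and for Steap4, the gene called in the most fits with a mouse left out. Each run below holds the 250 bases before the RefSeq start, 5′ to 3′ on the strand of the gene, from RefSeq on GRCm38.p6. For S100a8 and Mcemp1 the gene positions given above begin before the RefSeq start. The end of each of these runs therefore lies inside the gene as placed there. Capitals mark matches on either strand to any of 3 motifs: a C/EBP half-site pair (TTGCNNAA), an ETS site of the PU.1 type (GAGGAAGT) and a STAT palindrome (TTCNNNGAA). C/EBP factors, PU.1 and STAT proteins act in myeloid cells.
S100a8, chr3:90668821-90669070, plus strand: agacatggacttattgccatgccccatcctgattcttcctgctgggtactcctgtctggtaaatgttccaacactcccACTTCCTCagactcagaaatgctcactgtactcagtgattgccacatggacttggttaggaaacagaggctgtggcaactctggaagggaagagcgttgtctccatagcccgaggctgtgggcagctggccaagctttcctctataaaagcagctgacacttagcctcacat
S100a9, chr3:90695722-90695971, minus strand: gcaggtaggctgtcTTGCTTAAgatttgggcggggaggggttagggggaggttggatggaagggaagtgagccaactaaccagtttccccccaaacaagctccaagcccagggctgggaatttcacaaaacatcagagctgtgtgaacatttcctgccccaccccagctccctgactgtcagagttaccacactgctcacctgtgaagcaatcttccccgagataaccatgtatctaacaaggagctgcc
Mcemp1, chr8:3665512-3665761, plus strand: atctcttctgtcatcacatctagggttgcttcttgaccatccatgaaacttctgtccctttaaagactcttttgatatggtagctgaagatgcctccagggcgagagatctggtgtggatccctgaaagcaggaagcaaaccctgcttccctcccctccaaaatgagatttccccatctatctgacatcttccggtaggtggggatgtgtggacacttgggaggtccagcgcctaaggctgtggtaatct
Fpr2, chr17:17887574-17887823, plus strand: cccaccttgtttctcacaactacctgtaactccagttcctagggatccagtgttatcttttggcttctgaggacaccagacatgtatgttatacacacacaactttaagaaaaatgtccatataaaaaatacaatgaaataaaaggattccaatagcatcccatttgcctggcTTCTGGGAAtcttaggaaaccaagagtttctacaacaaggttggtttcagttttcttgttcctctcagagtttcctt
Steap4, chr5:7960222-7960471, plus strand: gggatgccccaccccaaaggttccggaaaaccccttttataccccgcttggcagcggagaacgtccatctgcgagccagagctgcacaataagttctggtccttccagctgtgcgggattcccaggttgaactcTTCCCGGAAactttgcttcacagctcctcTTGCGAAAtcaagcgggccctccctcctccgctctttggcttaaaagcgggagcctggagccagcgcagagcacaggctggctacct
S100a8 held a match to the PU.1 motif that began 172 bases before the start, S100a9 a match to the C/EBP motif 236 bases before it, and Fpr2 a match to the STAT motif 77 bases before it. Steap4 held a C/EBP match at 87 and a STAT match at 116 bases before the start, and Mcemp1 held none of the 3. Among 27025 promoters of this length, 9.55% held the C/EBP motif, 2.44% the PU.1 motif and 7.18% the STAT motif. A match is a match of letters and says nothing of binding.

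Among called genes averaging 100 or more scaled counts, the 10 largest rises were those of Gm49368, Upp1, Wfdc17, Steap4, Entpd3, Mrgpra2b, Ly6g, Wfdc21, Acod1 and Ifitm1. Steap4 encodes a metalloreductase induced by inflammatory cytokines. It had 5289, 2420 and 3642 scaled counts on the high side and 197, 199 and 115 on the low side, a 22.2-fold rise (log2FC 4.47, SE 0.371, adjusted p = 0.00651). Wfdc17 and Wfdc21 encode small secreted proteins with a whey acidic protein domain, a fold found in protease inhibitors. Wfdc17 had 13576, 5005 and 9408 scaled counts against 432, 450 and 258 (log2FC 4.62, SE 0.423, adjusted p = 0.00709). Wfdc21 had 6045, 1751 and 3033 against 269, 203 and 187 (log2FC 4.04, adjusted p = 0.0228). In all of these the lowest high value, that of mouse 7, was several times the highest low value.

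Ly6g encodes the surface antigen by which mouse neutrophils are sorted. It had 2756, 500 and 1154 scaled counts on the high side and 79.9, 74.9 and 76 on the low side (log2FC 4.25, SE 0.578, adjusted p = 0.0343), so the low side was tight and the high side spread over a 5.51-fold range. Mrgpra2b, a Mas-related receptor of neutrophils, had 880, 198 and 340 against 23.5, 28.9 and 20.5 (log2FC 4.26, adjusted p = 0.0331). Acod1 encodes the enzyme that makes itaconate in activated myeloid cells. It had 2773, 1168 and 1563 scaled counts against 62.6, 191 and 95.3 (log2FC 3.96, adjusted p = 0.027). Ifitm1 encodes an interferon-inducible membrane protein and had 8513, 3498 and 5931 against 517, 470 and 422 (log2FC 3.67, SE 0.338, adjusted p = 0.00709). Upp1, a uridine phosphorylase, had 1548, 339 and 545 against 18.8, 28.9 and 18.1 (log2FC 5.17, adjusted p = 0.0267). Entpd3, an ectonucleotidase that splits extracellular ATP, had 997, 239 and 454 against 45.4, 31.5 and 10.9 (log2FC 4.28, adjusted p = 0.0412). Ly6g, Mrgpra2b, Ifitm1 and the stefin genes have close relatives in the genome, and reads they share could be split between copies.

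Gm49368 had the highest fitted log2FC of the called genes, 11.5 (SE 0.967, adjusted p = 0.00651). It had 4038, 722 and 2995 scaled counts on the high side and 1.57, 0 and 1.21 on the low side. The low side held 2 counts in all, and the ratio of the sides by raw counts was 3210 with an exact 95% counting interval of 890 to 26500. This gene (chromosome 7, 128062683 to 128128160, plus strand) shares exon bases on its own strand with Gm45700 and with Itgam, which encodes CD11b, the alpha chain of a leukocyte integrin. Itgam had 13078, 3642 and 4469 scaled counts on the high side and 2819, 2254 and 2557 on the low side (log2FC 1.47, adjusted p = 0.227). Gm49368 made up 23.6%, 16.5% and 40.1% of the sum of both genes in mice 1, 7 and 9, and at most 0.0555% on the low side. The sum stood at 17115, 4364 and 7464 against 2821, 2254 and 2559, so the sides of the sum did not overlap either. How the authors' quantification shared reads between the 2 genes was not tested. In the colon, Gm49368 was listed at 1919 and 2404 normalized counts in mice 1 and 7, at 0.9 in mouse 9 and at 0 on the low side. Of the 64 genes, 18 share exon bases with another annotated gene on either strand, among them Lilrb4a with Gm49339, Ugt1a6a with the other Ugt1a genes and Il1b with its antisense Il1bos.

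The 64 genes followed the same order of mice in most cases. Mouse 7 was the lowest of the high side in 62 of them, and mouse 1 was the highest in 54, mouse 9 in 9 and mouse 7 in 1. Among all genes above without overlap, mouse 7 was the lowest in 63.2% and mouse 1 the highest in 75.1%. Against the mean of the low side, the median log2 ratio over the 64 genes was 2.98 in mouse 1, 2.34 in mouse 9 and 1.70 in mouse 7. The genes highest in mouse 9 were S100a8, Il13ra1, Il1f9, Lilrb4a, Gk, Gm38377, Trim30b, Fbxl5 and Sirpb1b, named after their values were seen. The exceptions to mouse 7 as the lowest were Il1b, which was lowest in mouse 1 and highest in mouse 7 with a spread of 1.16-fold over the high side, and Oas2, which was lowest in mouse 9 with a spread of 1.27-fold.

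**Figure D3:**
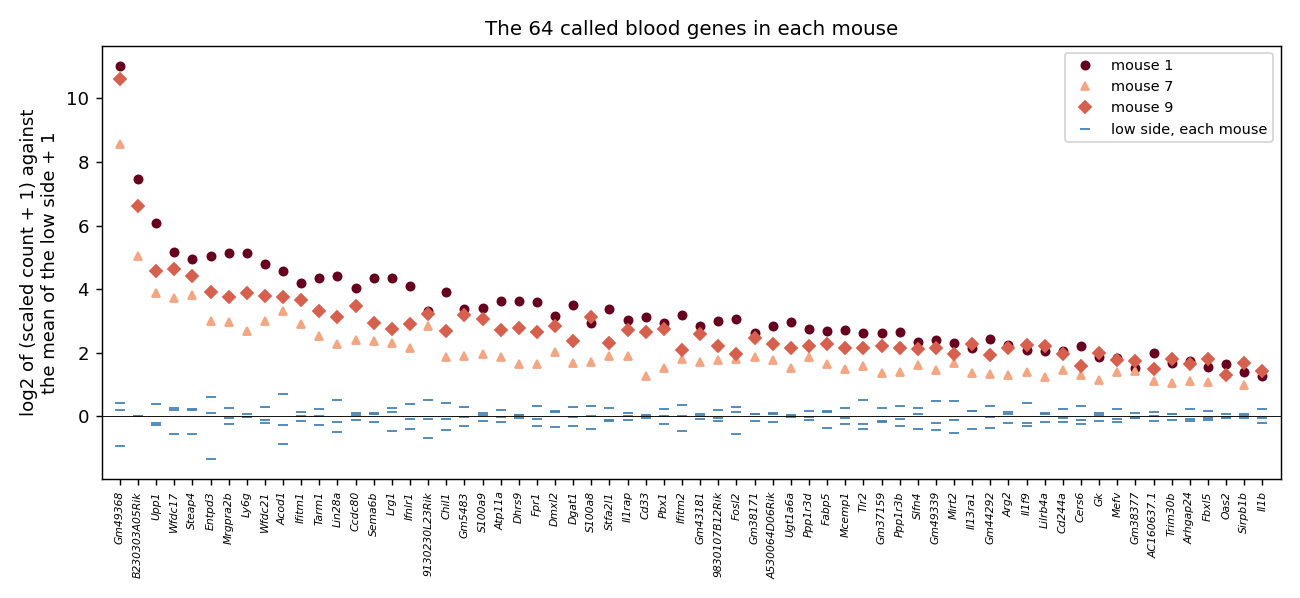
Log2 ratio of the scaled count plus 1 in each mouse to the mean of the low side plus 1 (y axis) for the 64 called genes, ordered by log2FC. Mouse 7 of the high side lies lowest of its side in 62 genes, and the blue ticks are the 3 mice of the low side.

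In 24 gene lists of pathways and blood cell types, 18 of 332 tested members (5.42%) were called, all of them higher, against 0.382% of all genes tested. These lists were chosen with earlier results of these data known. Every list below is to be read beside the shares over all genes tested: 0.382% called higher, 0% called lower and 11.2% above without overlap. At an unadjusted p under 0.05 in edgeR, 8.77% had a positive and 2.42% a negative log2FC. The calls fell in alarmins and protease inhibitors, neutrophil surface receptors, sensors, cytokines, Fc receptors, interferon-stimulated genes, glucose and glycogen use, and long noncoding RNAs.

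Of 14 alarmins and protease inhibitors, which act inside and outside the neutrophil, 6 were called higher and 0 lower, all 14 had an unadjusted p under 0.05, and the median log2FC was 2.92. The called members were S100a8, S100a9, Wfdc17, Wfdc21, Stfa2l1 and Gm5483, the last 2 being stefins, which inhibit cathepsins. S100a6, a calcium-binding relative of S100a8, had 12030, 4835 and 6006 scaled counts against 2373, 2547 and 1957 (log2FC 1.73, adjusted p = 0.0699). Anxa1, the phospholipid-binding annexin A1 of neutrophil cytosol, had 17525, 4593 and 9289 against 1875, 1872 and 1706 (log2FC 2.53, adjusted p = 0.0547). Neither passed the test, although all 14 members lay above on the high side without overlap, against 11.2% of all genes tested. The member Stfa3 was at 0 counts on the low side. It could pass the filter only through the high side, which fixed its direction. The summed level of the list was 1290 to 3460 CPM on the high side and 311 to 394 CPM on the low side.

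Of 14 tested granule protein genes, 0 were called, 10 had an unadjusted p under 0.05 with a positive log2FC, and the median log2FC was 2.56. The share of such p-values over all genes tested was 8.77%. Of the 14, 9 lay above without overlap, against 11.2% of all genes tested. DESeq2 called 5 of the 18 genes on the list higher and 0 lower, against 3.08% and 0.126% of all genes. Primary granule genes, which are transcribed in marrow precursors, were near 0: Mpo was at 80.1 scaled counts in mouse 1 and at most 9.32 in the other 5 mice, and Elane was at 19.5 in mouse 1 and at 0 in the others. Secondary granule genes were highest in mouse 1. Ltf, lactoferrin, had 2905 scaled counts in mouse 1, 315 in mouse 7 and 134 in mouse 9, against 116, 74 and 142, and its sides overlapped. Lcn2, the iron-sequestering lipocalin, had 9495, 806 and 1933 against 175, 177 and 191 (log2FC 4.49, SE 0.822, adjusted p = 0.0621). Among late granule genes, Mmp8, neutrophil collagenase, had 25424, 3336 and 8470 against 1054, 1183 and 861 (log2FC 3.59, SE 0.648, adjusted p = 0.0607), and Mmp9, gelatinase B, had 32647, 4239 and 7405 against 3939, 1716 and 1551 (log2FC 2.62, adjusted p = 0.177). Mouse 1 stood several times above mice 7 and 9 in these genes. Cyba, an oxidase subunit, had a log2FC of 0.34 (adjusted p = 0.678) with overlapping sides. The summed level of the granule list was 269 to 1000 CPM on the high side and 161 to 192 CPM on the low side.

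Of 23 tested neutrophil surface receptors, 4 were called higher (Fpr1, Mcemp1, Ly6g and Mrgpra2b) and 0 lower, against 0.382% and 0% of all genes tested. Of the 23, 22 lay above without overlap, against 11.2% of all genes tested, and the median log2FC was 2.20. Fpr1, the high-affinity formyl peptide receptor, had 4371, 1120 and 2255 scaled counts against 454, 294 and 338 (log2FC 2.84, SE 0.458, adjusted p = 0.046). Csf3r, the receptor of granulocyte colony-stimulating factor, had 26185, 8056 and 13803 against 4456, 2883 and 3073 (log2FC 2.21, SE 0.418, adjusted p = 0.0643). Cxcr2, the receptor of neutrophil chemokines, had 15751, 5977 and 12461 against 3504, 2616 and 2122 (log2FC 2.05, SE 0.367, adjusted p = 0.0602). Both missed the threshold while their sides did not overlap. Itgb2, the beta chain that pairs with CD11b, had a log2FC of 1.08 (adjusted p = 0.299). Cxcr4, which holds neutrophils in the marrow, was the only tested member that overlapped and had a negative log2FC (-0.09, adjusted p = 0.93). The receptors summed to 570 to 1490 CPM on the high side and 337 to 383 CPM on the low side. Over the same libraries monocyte genes summed to 923 to 1100 CPM against 832 to 1140 CPM, and B cell genes to 365 to 528 CPM against 446 to 618 CPM. The part of cell composition in these differences was not tested.

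Of 19 innate sensors and inflammasome genes, 1 was called higher and 0 lower, and the median log2FC was 1.15. The called gene was Tlr2, the receptor of bacterial lipoproteins, with 3662, 1785 and 2646 scaled counts against 495, 840 and 445 (log2FC 2.18, SE 0.339, adjusted p = 0.046). Nlrp12, an intracellular sensor of myeloid cells, had 9553, 3512 and 5914 against 1588, 2034 and 1773 (log2FC 1.81, adjusted p = 0.0643). Tlr13, a sensor of bacterial ribosomal RNA, had a log2FC of 1.34 (adjusted p = 0.151), and Myd88, the adaptor of most Toll-like receptors, one of 1.19 (adjusted p = 0.0874).

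Of 23 tested cytokine and acute phase genes, 2 were called higher and 0 lower, and the median log2FC was 1.20. Il1b, the gene of interleukin-1 beta, had 14061, 16289 and 15623 scaled counts against 5666, 6949 and 5063 (log2FC 1.38, SE 0.222, adjusted p = 0.046). Both sides were tight, and the called difference was the smallest of the 64. Lrg1, an acute phase glycoprotein also stored in neutrophil granules, had 12598, 3037 and 4145 against 738, 678 and 445 (log2FC 3.41, SE 0.531, adjusted p = 0.046). Hp, haptoglobin, had 31267, 11726 and 15217 against 5532, 6430 and 4860 (log2FC 1.79, adjusted p = 0.0791), and Stat3, the transducer of the IL-6 and granulocyte colony-stimulating factor receptors, a log2FC of 1.35 (adjusted p = 0.124). Ccl6, a myeloid chemokine, differed by a log2FC of 0.29 (adjusted p = 0.638). Other inflammatory cytokines were low in blood: Tnf had 87.7, 76.5 and 69.5 scaled counts against 130, 62.1 and 45.8, and Il6 at most 23.9 in any mouse.

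Of 17 Fc receptor and ITAM signalling genes, 1 was called higher and 0 lower, all 17 had a positive log2FC, and the median was 1.13. The called gene was Lilrb4a, an inhibitory receptor of myeloid cells, with 5469, 3067 and 6099 scaled counts against 1388, 1161 and 1375 (log2FC 1.90, SE 0.277, adjusted p = 0.0361). Gm49339, which overlaps it, was also called (log2FC 2.05). Fgr, a Src-family kinase of myeloid cells, had a log2FC of 1.82 (adjusted p = 0.074), Lyn, a kinase of the same family, 0.77 (adjusted p = 0.251), Syk, the kinase that binds ITAMs, 0.75 (adjusted p = 0.418), and Tyrobp, the adaptor DAP12, 0.96 (adjusted p = 0.166).

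Of 18 genes of glucose and glycogen use, 2 were called higher and 0 lower, and the median log2FC was 0.63. Both encode subunits that target protein phosphatase 1 to glycogen. Ppp1r3d had 4030, 2178 and 2778 scaled counts against 662, 580 and 548 (log2FC 2.33, SE 0.263, adjusted p = 0.0228). Ppp1r3b had 3627, 1525 and 2582 against 468, 728 and 550 (log2FC 2.14, SE 0.332, adjusted p = 0.046). Pygl, glycogen phosphorylase of liver and leukocytes, had 23758, 6748 and 10778 against 3298, 3207 and 3310 (log2FC 2.07, SE 0.418, adjusted p = 0.074), and here too the low side was tight. The glucose transporter gene Slc2a3 had a log2FC of 0.65 (adjusted p = 0.403), the hexokinase gene Hk1 0.52 (adjusted p = 0.528), and Pkm, pyruvate kinase, 1.12 (adjusted p = 0.248).

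Lists of the other blood cells showed no calls in either direction. Monocyte and macrophage genes had a median log2FC of 0.02, and Lyz2, lysozyme, had 64461, 84258 and 69634 scaled counts against 63502, 96025 and 73703 (log2FC -0.10, adjusted p = 0.917). Ctss, cathepsin S, had a log2FC of -0.15, F13a1, a coagulation factor subunit made by monocytes and platelets, 0.38, and Fn1, fibronectin, 1.56 with overlapping sides (adjusted p = 0.403). The B cell list had a median of -0.32, the T cell list -0.31, the NK list -0.26 and the MHC class II list -0.46. At an unadjusted p under 0.05, 1 of 13 B cell, 2 of 15 T cell, 1 of 10 NK and 3 of 10 class II genes were lower. The share among all genes tested was 2.42%, and 1 T cell gene was higher. Among their best-expressed members the sides overlapped in all but Bank1. Ms4a1, the CD20 gene, had 3235, 8079 and 6158 scaled counts against 9054, 11391 and 6800 (log2FC -0.64, adjusted p = 0.527). Ighm, immunoglobulin M, had a log2FC of -0.32, Cd79b, a B cell receptor chain, -0.58, and Bank1, a B cell scaffold, -0.53, the last with the high side below without overlap. Il7r, the T cell survival receptor, had -0.44, Cd28, a T cell co-receptor, -0.44, Lck, the T cell receptor kinase, -0.32 and Lef1, a factor of naive T cells, -0.02. In NK cells, the granzyme gene Gzma had -0.38, the receptor genes Klrk1 and Klrb1c -0.26 and -0.12, and Il2rb 0.95. The class II genes H2-Aa, H2-Ab1 and H2-Eb1 had -0.48, -0.45 and -0.54, and the invariant chain Cd74 0.14. None of these passed the test, and under scaling by library size alone, which moved the median of all genes from -0.03 to 0.35, the medians of the B cell, T cell and NK lists turned positive (0.04, 0.08 and 0.24).

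Eosinophil, basophil and mast cell genes were low in all libraries, with a median log2FC of -0.32 that was 0.18 under scaling by library size alone. Ccr3, the eotaxin receptor, had 41.1, 342 and 263 scaled counts on the high side and 875, 691 and 738 on the low side (log2FC -1.83, SE 0.587, adjusted p = 0.259), and DESeq2 called it lower (adjusted p = 0.0175). Il5ra, the interleukin-5 receptor of eosinophils, had 159, 385 and 298 against 512, 471 and 428 (log2FC -0.74, adjusted p = 0.434). Siglecf and Cd200r3, surface markers of eosinophils and basophils, had log2FC of 0.07 and -0.61. The summed level of the list was 5.77 to 8.59 CPM on the high side and 13.3 to 14.4 CPM on the low side.

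Platelet and red cell genes had no calls by edgeR. Of 15 platelet genes, 14 had a positive log2FC, and 5 an unadjusted p under 0.05 with a positive log2FC, against 8.77% of all genes tested. Of the 15, 3 lay above without overlap, against 11.2% of all genes tested. The median was 0.39. DESeq2, at an adjusted p of 0.0279, called 1 of them higher, Gp1ba, which encodes a chain of the von Willebrand factor receptor (edgeR log2FC 1.16, adjusted p = 0.219). Ppbp, a platelet chemokine, had a log2FC of 0.14, Tubb1, the platelet tubulin, 0, Itga2b and Itgb3, the fibrinogen receptor chains, 0.39 and 0.96. Red cell genes spread widely on both sides: Alas2, the heme synthesis enzyme of red cells, had 7446361, 4541358 and 6025425 scaled counts against 7422076, 3981744 and 7044428 (log2FC -0.03). Bpgm and Fech, also abundant in red cells, had 0.63 and 0.51, and the list median was 0.57. The summed red cell level was 52800 to 94000 CPM on the high side and 42400 to 80200 CPM on the low side. The proliferation genes Mki67, Top2a, Ccna2 and Kif11 had log2FC of 0.07, -0.34, 0.16 and -0.55, and their list a median of -0.25 with 0 calls.

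Of 20 interferon-stimulated genes, 1 was called higher and 0 lower, 10 had a positive and 10 a negative log2FC, and the median was 0. Oas2, an antiviral oligoadenylate synthetase, was the called gene, with 1535, 1235 and 1207 scaled counts against 517, 481 and 490 (log2FC 1.42, SE 0.202, adjusted p = 0.0361). Oasl2, a relative of it, had a log2FC of 1.08 (adjusted p = 0.129). The best-expressed members differed little: Rsad2 had 0.35 and Isg15 0.15. Mx1, an antiviral GTPase, lay below on the high side, with 201, 454 and 338 against 556, 598 and 530 (log2FC -0.76, adjusted p = 0.384).

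Circadian, glucocorticoid and eicosanoid lists had no calls by edgeR, with medians of 0.31, 0.51 and 0.61. DESeq2 called 4, 1 and 3 of their members higher and 0 lower, against 3.08% and 0.126% of all genes. Of 16, 11 and 11 members tested by edgeR, 4, 3 and 5 lay above without overlap, against 11.2% of all genes. Below without overlap lay 1, 0 and 0, against 7.85%. Among circadian genes 2, Usp2 being 1 of them, had no count on the low side, which fixed their direction. Per1, a clock gene that glucocorticoids also induce, had 2229 scaled counts in mouse 1 and 175 to 587 in the other 5 (log2FC 1.43, adjusted p = 0.426). The core clock genes Arntl and Clock had log2FC of -0.22 and -0.39 and the repressor gene Nr1d2 -0.54. Of the glucocorticoid targets, Dusp1, a phosphatase of MAP kinases, had 1.68 (adjusted p = 0.147), Tsc22d3 -0.08, Ddit4 -0.12, and the receptor gene Nr3c1 0.40. Alox5ap, the partner of 5-lipoxygenase, had 0.99 (adjusted p = 0.221), Pla2g7, a lipase that inactivates platelet-activating factor, 1.43 (adjusted p = 0.0643), Alox12 0.82 and Ptgs1 0.61.

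Of 9 tested long noncoding RNAs, 1 was called higher and 0 lower. Mirt2, an inhibitor of inflammatory signalling in macrophages, had 718, 472 and 566 scaled counts against 204, 134 and 100 (log2FC 2.01, SE 0.315, adjusted p = 0.046). It shares exon bases with another annotated entry of the same name on its own strand and with Spatc1 on the other strand. No use of strand is stated for the counts. Neat1, the scaffold of paraspeckles, had 43576, 27218 and 30948 against 9690, 12121 and 17018 (log2FC 1.39, adjusted p = 0.0939), and Malat1, Gas5 and Snhg1 had log2FC of -0.19, -0.29 and -0.16. Markers of tissue other than blood were near 0. Stromal genes had sums of 0.731 to 2.66 CPM on the high side and 1.17 to 4.47 CPM on the low side (Col3a1 -1.01, Col1a1 -1.16, Col1a2 -1.73, Col5a1 0.34 in log2FC), gut epithelium to 2.96 to 5.26 and 3.55 to 6.13 (Car1 -0.19, Lgals4 -0.03, Epcam -1.07, Cdh17 -0.44), and muscle to 1.21 to 1.73 and 1.3 to 3.89 (Mylpf 0.26, Acta1 -1.64, Tnnt3 -1.09, Atp2a1 -1.79). Krt20 and Lgals2 were at 0 in all 6 blood libraries.

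**Figure D4:**
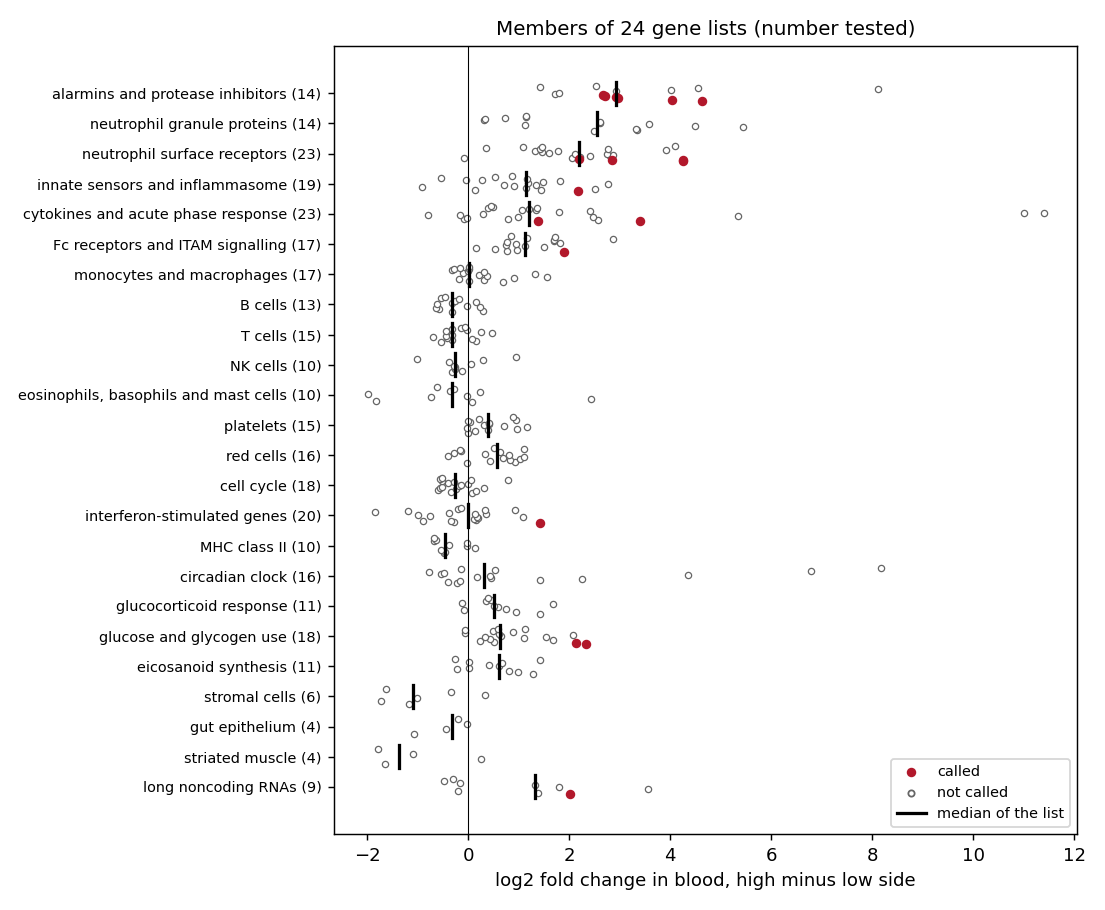
Log2FC in blood (x axis) of the tested members of 24 gene lists (rows, with the number tested). Red points are called and open points are not, and black bars are medians, which were 2.92 for alarmins, 2.56 for granule proteins and 2.20 for neutrophil receptors against -0.03 over all genes.

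The last 4 lists come from the study, whose authors chose them on these samples, so their direction is not independent evidence. Of 13 genes known from colitis models, 4 were called higher (S100a8, S100a9, Il1b and Tlr2) and 0 lower. Among the others, the complement gene C3 had a log2FC of 1.83, the feedback inhibitor gene Socs3 2.41, Csf2rb, a receptor chain shared by GM-CSF and IL-3, 2.41, Ifitm6 3.29, the protease inhibitor gene Slpi 1.42 and Cd44, the hyaluronan receptor gene, 1.09, with adjusted p from 0.074 to 0.135. Nos2, inducible nitric oxide synthase, had 693, 14.4 and 38.1 scaled counts against 0 in the 3 mice of the low side, at least 184-fold higher against a floor of 3 counts over the low side. Cxcl2, a neutrophil chemokine, had 116, 27.1 and 25.4 against 4.7, 0 and 0, a count ratio of 44.9 with an exact 95% counting interval of 15.1 to 220. Mouse 1 gave most of the signal of both.

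Of 19 genes the study checked by PCR, 4 were called higher (S100a8, S100a9, Mcemp1 and Lrg1) and 0 lower, against 0.382% called higher among all genes tested. All 19 lay above without overlap, against 11.2% of all genes tested, and the median was 2.41. Fpr2, Nlrp12, Tyrobp, Alox5ap and Socs3 are given above. Osm, oncostatin M, had 1617, 643 and 422 scaled counts against 114, 193 and 170 (log2FC 2.48, adjusted p = 0.0684). Adgrg3, an adhesion receptor of neutrophils, had 1331, 242 and 368 against 86.1, 115 and 83.2 (log2FC 2.76, adjusted p = 0.0884). Hk3, the hexokinase of leukocytes, had a log2FC of 1.69, Cfp, properdin, 1.50, Ckap4 2.53, Plin5 3.71, Selplg, the P-selectin ligand, 1.43, Slc11a1, a metal transporter of phagosomes, 1.48, and Spi1, which encodes PU.1, 1.70, with adjusted p from 0.12 to 0.175. Prok2, a chemoattractant peptide, had 806, 60.6 and 142 against 0 in each low mouse, at least 259-fold higher. It could pass the filter only through the high side, so its direction among the 19 was fixed.

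The genes singled out in blood by the study were at 0 in all 3 low mice and low in mice 7 and 9. Of the 10, 9 passed the filter and 0 were called. With 0 counts on the low side they could pass only through the high side, so their direction was fixed by the filter. Bounds against the floor of 3 counts ran from at least 18.9-fold (Epha2) to at least 147-fold (Gpr27). In between were Gm33326 (22), Gm7206 (23.3), Gm32486 (24.4), Dync2li1 (27.3), Stfa3 (27.8), Gm37800 (28.9), Usp2 (29.4) and Gm7457 (41.5). With these bounds in place of fitted values the list median was 4.8 on the log2 scale, against 8.06 as fitted. In the list for colon and blood together, 5 of 11 genes were called higher (Gm49368, B230303A05Rik, Gm5483, Ppp1r3b and Mirt2). B230303A05Rik, a pseudogene, had 176, 31.9 and 97.5 scaled counts against 0 in each low mouse, at least 83.4-fold higher. Its direction was fixed by the filter, as was that of Prok2, Lipg, Saa3 and Ambp in this list. Lipg, endothelial lipase, had 2447 scaled counts in mouse 1, 37.5 in mouse 7 and 217 in mouse 9 against 0 (at least 672-fold), Saa3, serum amyloid A3, 627, 66.2 and 83.1 against 0 (at least 199-fold), and Ambp 91, 18.3 and 39.8 against 0 (at least 40.4-fold). Trem3, an amplifying receptor of myeloid cells, had a log2FC of 1.61 (adjusted p = 0.065) and Gm11714 one of 3.56 (adjusted p = 0.12).

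Of the 44 called genes in no list, 10 are given here, picked after their values were seen. Chil1, a chitinase-like protein of neutrophil granules, had 5071, 1224 and 2192 scaled counts against 448, 317 and 249 (log2FC 3.07, adjusted p = 0.0462). Il1rap, the accessory chain of the interleukin-1 receptor, had 5690, 2595 and 4564 against 634, 692 and 747 (log2FC 2.63, SE 0.298, adjusted p = 0.0228). Il1f9, interleukin-36 gamma, had 2862, 1768 and 3199 against 896, 552 and 585 (log2FC 1.95, adjusted p = 0.0425). Cd33, a sialic acid receptor of myeloid cells, rose by a log2FC of 2.54, Slfn4, a schlafen protein of myeloid cells, by 2.06, Arg2, mitochondrial arginase, by 1.95, and Mefv, which encodes the inflammasome sensor pyrin, by 1.68. Lin28a, an RNA-binding protein known from stem cells, had 725, 164 and 295 against 47, 28.9 and 22.9 (log2FC 3.60, adjusted p = 0.046), and it shares exon bases with Gm13061 on the other strand. Dgat1, the last enzyme of triglyceride synthesis, rose by a log2FC of 2.71 and Fabp5, a fatty acid carrier, by 2.28.

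No gene was called lower. Those with the lowest p among negative log2FC, named after their values were seen, were Styx, a pseudophosphatase, with 408, 269 and 351 scaled counts against 949, 765 and 737 (log2FC -1.25, adjusted p = 0.0645), the antisense RNA Gm4673 (log2FC -2.93, adjusted p = 0.0796) and H2-Eb2, a class II gene (log2FC -0.97, adjusted p = 0.0933).

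The colon of the same mice is described without a test, since it set the split. All 64 genes were in the authors' colon table. In 44 of them the 3 colon values of the high side lay above those of the low side, in 3 below, and in 17 they overlapped. Among the 16593 blood-tested genes in that table the colon sides lay above in 15.7% and below in 14.2%. Lrg1 had 6363, 13670 and 26490 normalized counts in the colon of mice 1, 7 and 9 against 173, 174 and 252, and Il1b 4138, 1361 and 13430 against 125, 20.6 and 31.5. In the colon mouse 9 was the highest in both, whereas in blood mouse 1 was the highest for Lrg1 and mouse 7 for Il1b. For Upp1 and Il1rap, chosen here after their values were seen, the colon sides overlapped. Upp1 had 4995, 9720 and 9054 colon normalized counts against 3827, 8562 and 8283, and Il1rap 1497, 1338 and 2052 against 1574, 1796 and 1797. Ppp1r3b, Gm44292 and AC160637.1 lay below on the high side in the colon.

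**Figure D5:**
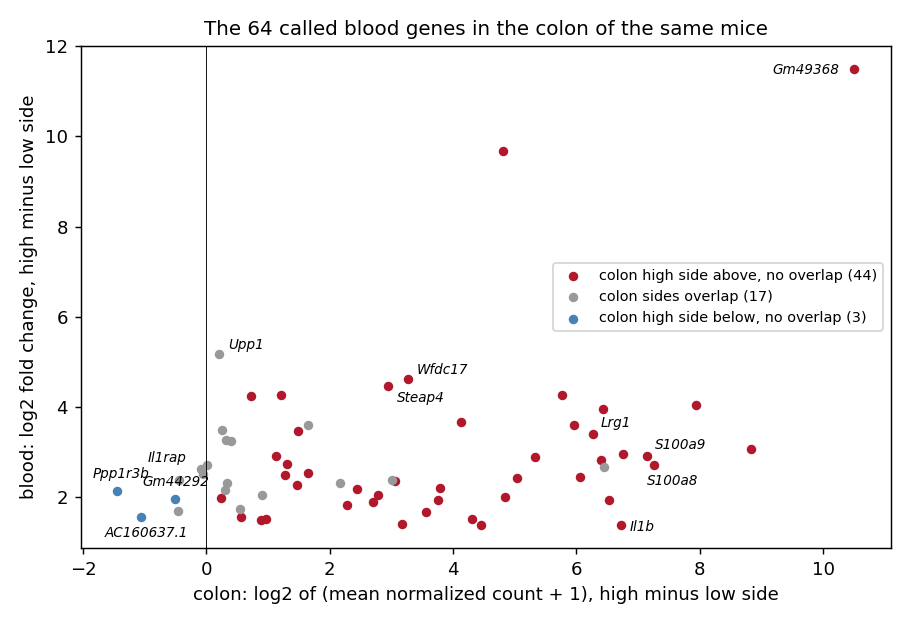
Difference of the 64 called genes in the colon (x axis, log2 of the mean normalized count plus 1, high minus low side) and in blood (y axis, log2FC). Colours give the order of the sides in the colon: 44 genes above without overlap in red, 17 that overlap in grey and 3 below in blue.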

How the data were processed

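Whole blood and colon of 6 mice were sequenced as total RNA, and only the 6 blood libraries were tested. Blood libraries were depleted of rRNA and globin RNA in preparation, and colon libraries of rRNA. The authors trimmed reads, removed reads of ribosomal origin, mapped the rest with STAR to GRCm38 and derived the deposited gene counts from StringTie 1.3.4c coverage (STAR, StringTie and DESeq2 are named in the submitters' processing notes). These counts are whole numbers, and overlapping genes can share coverage. The authors' normalized tables hold a signal, the gene count divided by 1 factor per library (0.664 to 1.306 in blood), and the blood table leaves out 94 counted genes. Of 53801 gene IDs (Ensembl release 92), 53706 were found in GENCODE M21, the source of positions.

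The colon table set the sides. The split, its members and the gene lists were chosen with earlier results of these data known. Blood counts were fitted with edgeR 4.0.16 in R 4.3.3 (filterByExpr, TMM, quasi-likelihood test, 3 libraries a side), with Benjamini-Hochberg adjustment over 16759 genes. SE is the absolute log2FC over the square root of F. DESeq2 1.42.0 and limma 3.58.1 (voom) were alternatives, and scripts were tested on simulated data. Floors (3 counts over the low side) and intervals cover counting error only. Tested genes at 0 on the low side could pass the filter only through the high side, which fixed their direction. Nos2, Prok2, Lipg, Saa3, Ambp, Stfa3 and B230303A05Rik are among them. Genes named were the 3 markers, the 10 largest rises and falls among called genes averaging at least 100 scaled counts, the 4 best-expressed tested members of each list, and members of the study's lists. Genes outside this rule were chosen after their values were seen. They are those said so in the text and also Rn7s1, Rn7s2, Krt8, Krt20, Lgals2, Itgam, Gm45700, Gm49339, Lilrb4a, Ugt1a6a, Stfa2l1, Mpo, Elane, Ltf, Fpr1, Cxcr4, Gp1ba, Tnf, Il6, Ppp1r3d, Oas2, Mx1, Gm44292 and AC160637.1. The normalized tables list mice in the order 1, 7, 9, 2, 4, 8, which was not used to group them. Some genes that this rule names are not reported here.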

Additional observations from a re-analysis of the deposited data

Results flagged for a closer look

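Blood and colon went in opposite directions for 3 of the 64 called genes: all 3 mice of the high side lay above the low side in blood and below it in colon. The difference between the tissues was not tested. Ppp1r3b, a glycogen-targeting subunit of protein phosphatase 1, had a blood log2FC of 2.14, while its colon normalized counts were 2166, 3058 and 3285 in mice 1, 7 and 9 against 6342, 9783 and 7008 in mice 2, 4 and 8. Gm44292 had a blood log2FC of 1.97 and colon values of 3610, 3365 and 3229 against 3856, 5050 and 5673. AC160637.1 had a blood log2FC of 1.57 and colon values of 3005, 3596 and 4102 against 4260, 9609 and 8448. It shares exon bases with Pkm and made up 4.51% to 10.2% of the sum of both genes in blood.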

How the results depend on the processing

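No paired analysis was possible because the 2 sides share no mouse number. Against 64 genes called higher, the count was 554 with scaling by library size only, 113 with no filter on low counts, 38 with a mean of at least 10 counts, 588 by DESeq2, 34 by limma-voom, 335 with the disease label as a term, 153 with 7SL genes left out and libraries thinned to 1 depth, and 4 at an adjusted p of at most 0.01. Genes called lower, 0 at first, numbered 4 with library size only, 24 by DESeq2 and 1 with the label as a term. Of the list members, 18 were called at first, 90 with library size only, 28 with no filter, 11 with a mean of at least 10 counts, 86 by DESeq2, 69 with the label as a term, 36 after thinning and 1 at an adjusted p of at most 0.01. Between the labelled groups DESeq2 called 6 genes and edgeR 0. Leaving out each mouse in turn gave 0 to 257 genes higher, 0 to 7 lower and 0 to 57 list members. The causes were not tested. The thinning and the fit to the genes of the authors' blood table were added after seeing the data.

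For 65 single genes, 788 values under these alternatives kept their direction and side of the threshold, 313 kept the direction but lost the call, 4 gained a call and 0 changed sign. Among list medians of at least 0.2 in size, 10 recomputed values changed sign, among them those of the cell cycle list (0.12) and the gut epithelium list (0.14) under library size only. With 3 libraries a side, the spread between animals limits the precision.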
